A study of Arabidopsis thaliana with 12 samples.

Results

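The genes described here carry the longest nuclear reading frames that were listed as translated in roots and shoots of Arabidopsis thaliana, a small plant of the mustard family. A member is a gene on chromosomes 1 to 5 with a coding open reading frame (ORF) of 1200 codons or more in the root set, the shoot set or both, and it is described by its longest coding ORF. By this rule 462 of 18104 nuclear genes with a coding ORF were members, or 2.55%. Their choice used ORF length and no count.

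Seedlings of the ecotype Col were 4 days old. They had grown in sterile liquid medium with sucrose, on long days, and root and shoot of the same kind of seedling were taken apart. No mutation, transgene or drug distinguished the groups, so the tissue is the one labelled difference. Ribosome profiling, in which footprints that ribosomes protect from a nuclease are sequenced, was labelled with 3 root and 3 shoot samples, and RNA-seq of the same tissues with 3 samples each. The files read here hold 1 set of translated ORFs per tissue, with 1 count per ORF, so no value below has a replicate error and no difference was tested.

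Very long reading frames in plants encode much of the machinery that other genes depend on. Among them are the heavy chain of clathrin, the coat protein of endocytic vesicles, the myosin and kinesin motors, the synthases that spin callose at the cell surface, and full-size ABC transporters, which join their membrane spans and their ATP-binding domains in a single chain. The nucleus contributes chromatin remodellers, the largest subunits of the RNA polymerases and DNA damage kinases, and the plastid imports some of the largest enzymes of nitrogen and chlorophyll metabolism. A ribosome takes longer to cross such a frame than a short one, and every codon of it can yield a footprint.

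There were 21768 ORFs in root and 21128 in shoot. Summed over the largest ORF count of each gene, the sets held 113381941 and 95481490 counts, and these sums scaled every ratio below. Of 5 genes known for root expression, all had the larger count in root before scaling. CASP1 of the Casparian strip had 19925 against 380, and the root meristem factor PLT1 had 621 with no entry in shoot. SHR (1224 against 761) and SCR (3581 against 2699) differed far less, and the root sum is itself the larger one. Of 5 genes for photosynthetic proteins, all had the larger count in shoot, yet none was missing in root: the Rubisco small subunit gene RBCS1A had 29379 counts in root and 1065418 in shoot. In tissue taken whole, fewer cells of a type and less RNA per cell cannot be told apart, and a count does not separate the amount of a transcript from the number of ribosomes on it.

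The members ran from 1200 to 5393 codons, with a median of 1464 and with 1 in 4 above 1792.5. There were 177 members of 1600 codons or more, 33 of 2400 or more and 5 of 4000 or more. The largest was AT1G67120, named MIDASIN 1 in the RefSeq gene table, at 5393 codons on the minus strand of chromosome 1 from 25069730 to 25095525 (TAIR10). Its yeast counterpart is an AAA ATPase that matures the large ribosomal subunit. BIG, a protein of about the same size that is needed for auxin transport, followed with 5098 codons on chromosome 3 from 431155 to 448488, minus strand. Then came AT5G23110 (4706 codons), AT4G17140 (4219) and AT1G48090 (4146), which carry no name in the table. The ubiquitin ligase UPL1 (3875), AT2G17930 (3858), AT4G36080 (3834), the DNA damage kinase ATM (3799) and the ubiquitin ligase UPL2 (3658) completed the 10 longest.

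Members were spread over the chromosomes much as other genes were. Chromosomes 1 to 5 held 122, 68, 97, 76 and 99 of them, between 2.32% and 2.75% of the coding genes of each chromosome. Their ORFs were cut into a median of 16 exon blocks (quartiles 10 and 25), against 4 in shorter genes. Per 1000 codons the order was the other way, with a median of 9.69 blocks in members and 13.4 in shorter genes. ATM had the most blocks, 78, and also the longest genomic span, 30594 bases. At the other end 5 members had no intron within the ORF, or 1.08%, against 18.2% of shorter genes. They were TOC132, a receptor of the plastid import channel, and AT2G42270, AT3G14460, AT3G45830 and AT5G64270, chosen here for that structure after their values were seen.

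Around the threshold, the 4 members just inside were AT1G68710 with 1200 codons, AT3G25610 and the nuclear export receptor HST with 1202 each, and HEB1 with 1203. Just outside were AT3G20720 with 1199 codons, AT5G17680 and AT2G07360 with 1198 each, and the immune receptor gene CSA1 with 1197. Of the 8, AT3G25610 and AT5G17680 were listed in root only.

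Nearly all long reading frames were listed in both tissues. Of the 462 members, 445 had an ORF in each set, 10 in root only and 7 in shoot only. The share in both was 96.3% (exact binomial 95% interval 94.2 to 97.8), where all nuclear coding genes gave 80.8%. The shares in root only and in shoot only were 2.16% and 1.52%, beside 11.3% and 7.94% of all nuclear coding genes. These intervals, like all others given here, cover counting error only. Those of shares take genes as independent of each other. Those of ratios take reads as independent, though reads without molecular identifiers are not independent molecules.

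The share listed in both tissues stood higher in each longer class. It was 69.1% under 200 codons (2093 of 3027 genes), 84.3% from 400 to 799 codons (5724 of 6790), 94.4% from 1200 to 1599 (269 of 285), 99.3% from 1600 to 2399 (143 of 144) and 33 of 33 from 2400 codons on. Counts per ORF grew along the same axis: the median root count was 1504 in the shortest class and 11805 in the longest. Where the comparison was kept to genes with 1000 counts or more in the tissue that had more, 428 of 435 members (98.4%) and 92.2% of shorter genes were listed in both. The part of depth in the difference between the classes was not tested beyond this.

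Of the 17 members listed in 1 tissue only, 6 were ABC transporters, a family that made up 37 of all 462 members. In root only, the largest counts were those of AT3G25610 (3002 counts, 2.5 per codon), ABCB5 (1693), ABCC11 (1546) and ABCG41 (1187). They were followed by AT5G18350 (914), AT3G14460 (558), AT5G45200 (469) and chr31, named chromatin remodeling 31 in the table (334). The 2 remaining, AT4G24450 with the alias ATGWD2 (136) and AT2G17050 (129), lay below 0.11 counts per codon. In shoot only, ABCB14, a malate importer of guard cells, stood out with 4787 counts or 3.84 per codon. AT1G69550 (1811), ABCG42 (1519), AT4G19520 (600), ABCG31 (489), the DNA ligase LIG6 (314) and the meiotic gene SHOC1 (298) made up the rest. A missing entry is not a count of 0, since the smallest count in either set was 6 and the sources used here do not give the filters behind the sets.

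Long frames carried fewer counts per codon than short ones. The median member had 2.70 counts per codon in root (quartiles 1.34 and 6.0) and 1.97 in shoot (1.03 and 4.06). The medians of shorter genes were 4.86 and 3.73. Members held 9.83% of the codons of all longest nuclear coding ORFs in root and 3.83% of the counts. In shoot they held 10.1% of the codons and 3.78% of the counts. By length class the root median was 11.1 per codon under 200 codons and 2.92 at 800 to 1199, and it was 2.63, 2.97 and 2.64 in the 3 member classes. In shoot these 3 classes had 2.10, 1.78 and 1.71. Between the class of 800 to 1199 codons, at 2.16 in shoot, and the shortest member class the median differed little in either tissue, so most of the decline lay among the shorter frames.

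The most densely read long frame in root was GLT1, the NADH-dependent glutamate synthase, with 255067 counts over 2208 codons, or 116 per codon. It lies on chromosome 5 from 21700519 to 21709628, plus strand. AT2G32240 followed at 80.5 per codon. The clathrin heavy chains CHC1 and CHC2 had 71.9 and 66.4, and AT2G21390 had 44.5. The ABC transporters ABCB4, ABCG35 and PEN3, the last also known as ABCG36 and needed for resistance to fungal entry, closed the first 8 with 39.4, 39.3 and 38.1 per codon.

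In shoot, GUN5 stood alone. The gene encodes CHLH, the H subunit of magnesium chelatase, which puts magnesium into protoporphyrin at the entry to chlorophyll. It had 25776 counts in root (18.7 per codon) and 482268 in shoot (349 per codon), on chromosome 5 from 4387570 to 4392081, minus strand. In shoot this gene held 13.7% of all member counts, and the 10 largest member counts together 34.6%, against 21.8% in root. GLU1, the ferredoxin-dependent glutamate synthase of leaves, came next with 94.5 per codon. AT4G28080 (70.3), AT1G01320 (50.1), TOC159 (46.1), GLT1 (42.0), SPP (35.1) and CHC2 (34.4) followed. TOC159 is the main receptor for photosynthetic preproteins at the plastid envelope, and SPP is the stromal peptidase that removes their transit peptides.

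At the low end, AT4G02660 had 187 counts over 3527 codons in root (0.0530 per codon) and 346 over 3216 codons in shoot (0.108 per codon). The myosin gene XIC had 194 counts over 1538 codons in root and 31 in shoot, or 0.0202 per codon. Among shorter genes the lowest values were 0.0127 per codon in root and 0.0158 in shoot, so levels this low were not confined to long frames.

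**Figure D1:**
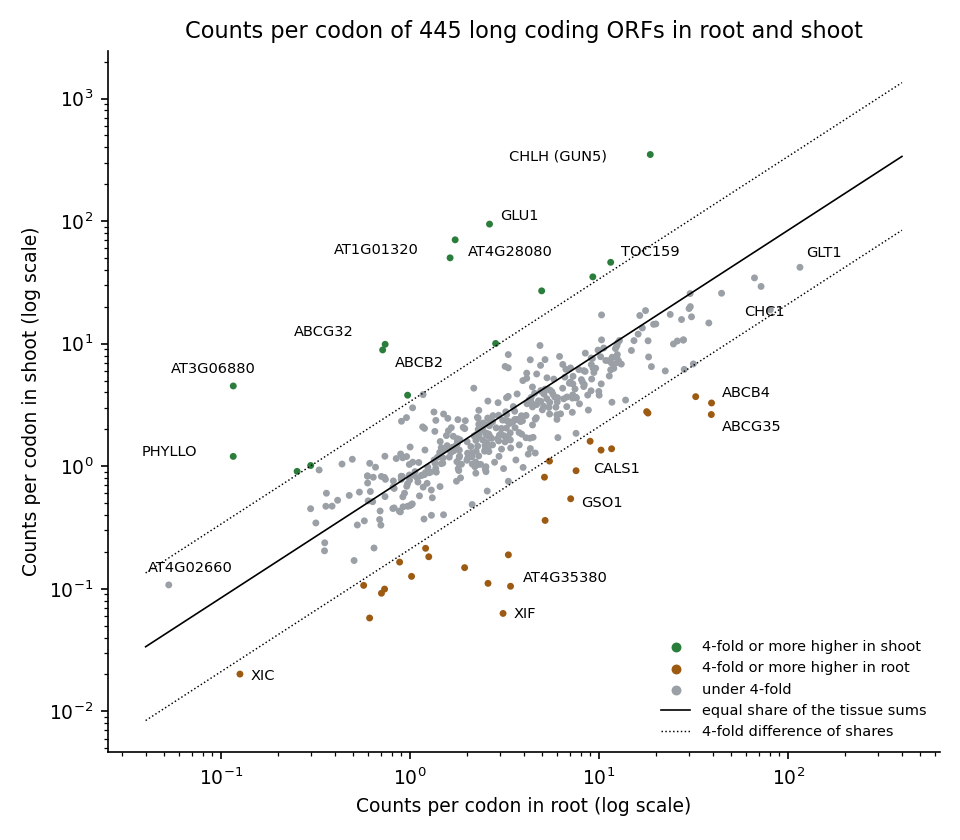
Counts per codon of the longest coding ORF in root (x axis) and shoot (y axis), both on log scales, for the 445 members with an ORF in both sets; each point is 1 gene, the solid line marks an equal share of the tissue sums and the dotted lines a 4-fold difference. Most points lie between the dotted lines, GUN5 stands apart at the top with 349 counts per codon in shoot, and XIC and XIF lie near the bottom with 0.0202 and 0.0630 in shoot.

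To set shoot against root, the share of the tissue sum was compared for the longest coding ORF whose exon blocks were identical in both sets, wherever the tissue with more counts had 100 or more. The ratio is log2 of shoot over root, with 0.5 added to each count, and a difference of 4-fold or more is called. It could be formed for 343 of the 445 members, and the other 102 had no coding ORF with the same blocks in both sets. In 4 of the 343 the identical ORF was a shorter one of under 1200 codons.

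Long reading frames differed less between the tissues than other genes did. Of the 343 members, 10 were 4-fold or more higher in shoot (2.92%, interval 1.41 to 5.30) and 19 in root (5.54%, interval 3.37 to 8.52). Across all 11602 genes compared the shares were 8.71% and 8.28%. The interval of members in root holds the share of all genes, and that in shoot does not. The median ratio of members was -0.30, close to that of all genes at -0.33, so that a value of -0.33 is the common level and not a difference particular to a gene. The 5th and 95th percentiles were -2.15 and 1.24 for members and -2.61 and 2.99 for shorter genes. Within 2-fold lay 78.4% of members (269 of 343) and 60.7% of shorter genes.

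By length, calls in either direction were made for 17.9% of genes under 200 codons, 19.9% from 200 to 399, 15.9% from 400 to 799 and 10.8% from 800 to 1199, beside 17.0% of all genes. They were made for 11.2% of members of 1200 to 1599 codons (23 of 205, interval 7.25 to 16.4), 4.46% of those of 1600 to 2399 (5 of 112) and 1 of 26 from 2400 codons on. The classes at 800 to 1199 and 1200 to 1599 codons lie within each other's intervals. The intervals of the last 2 classes, up to 10.1% and 19.6%, overlap as well. In shoot, 6.42% of genes from 800 to 1199 codons and 3.41% of those from 1200 to 1599 were called. In root the shares of these 2 classes were 4.39% and 7.80% (16 of 205), so fewer calls among the longer frames did not hold there. Without the ABC transporters, 9 of 185 members from 1200 to 1599 codons were called in root and 6 in shoot. Of the 26 longest, 4 had a ratio above 0, among them SYD at 0.04 and POK2 at 0.30, and the 1 gene past 4-fold was AT5G49680 with 2581 codons.

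**Figure D2:**
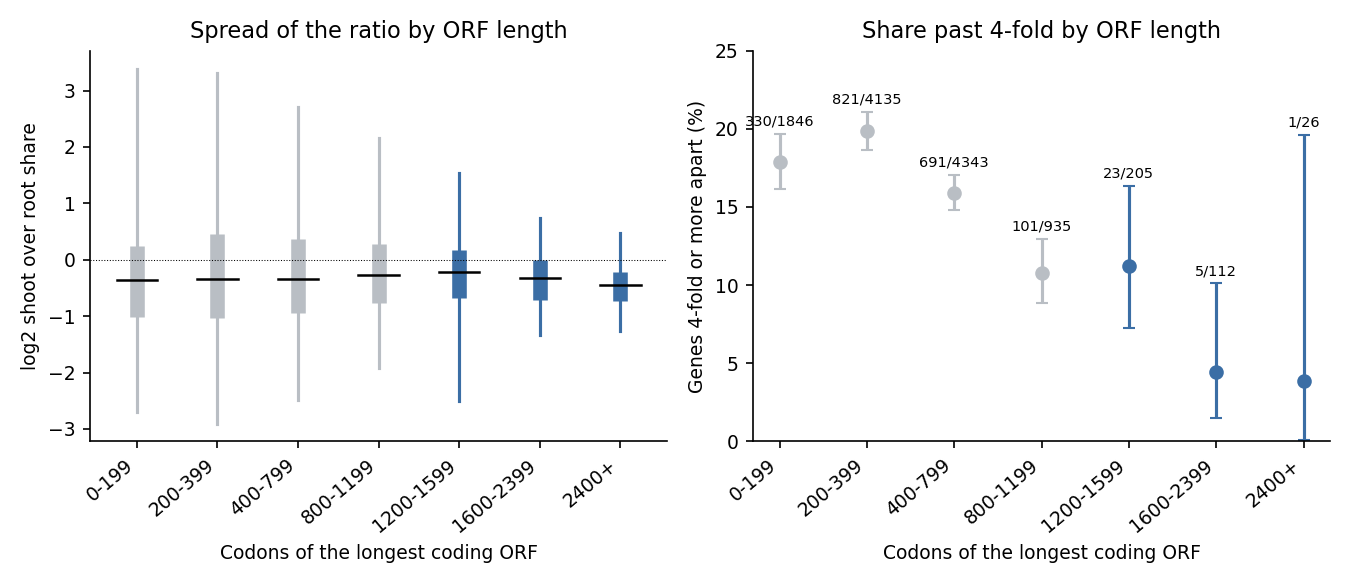
Left, log2 of shoot over root share by codons of the longest coding ORF, with the median (black line), the quartiles (thick bar) and the 5th to 95th percentiles (thin bar); right, percent of genes 4-fold or more apart in either direction with exact binomial 95% intervals and the numbers behind them. The medians stay between -0.45 and -0.22 in all classes, and the share past 4-fold goes from 19.9% at 200 to 399 codons to 4.46% at 1600 to 2399.

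Of the 10 members called higher in shoot, the one with the highest ratio was AT4G28080, which lies on chromosome 4 from 13948996 to 13957839, minus strand. It had 3155 counts in root and 127956 in shoot, a ratio of 5.59 or 48.2-fold (counting interval 46.5 to 49.9). AT3G06880 had 147 and 5709 counts, a ratio of 5.52, and AT1G01320 had 2930 and 90102, a ratio of 5.19. None of these 3 has a name in the table used. GUN5 followed with a ratio of 4.47, or 22.2-fold (21.9 to 22.5). ABCG32, which exports cutin precursors to the leaf surface, had 1050 counts in root and 14033 in shoot, a ratio of 3.99.

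The remaining 5 of the 10 highest ratios were smaller. AT1G15290 went from 7997 to 43368 counts, a ratio of 2.69. TOC159 had 17323 and 69288 counts and a ratio of 2.25. SPP had 11731 and 44375 and a ratio of 2.17, so the import receptor and the peptidase that acts after it were set apart by nearly the same amount. The embryo-defective gene emb2458 had 3748 and 13247 counts (2.07) and AT1G76740 had 449 and 1525 (2.01, counting interval 1.86 to 2.17). The last of these crosses the 4-fold line within its own counting error.

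The 10 lowest ratios, all past 4-fold in root, include those of a motor, 5 pumps and a receptor. The myosin gene XIF, on chromosome 2 from 13560763 to 13569622, minus strand, had 4836 counts in root and 98 in shoot, a ratio of -5.37 or 41.3-fold more in root (34.0 to 51.3). AT4G35380 had 5808 and 179 counts (-4.77) and AT5G49680 had 6678 and 286 (-4.30). ABCB11 had 4237 and 242 (-3.88), and ABCG35 had 56051 and 3772 (-3.65, 12.5-fold). AT1G74770 had 6530 and 455 (-3.59). GSO1, the receptor kinase that closes the Casparian strip and the embryonic cuticle, had 8844 and 678 counts (-3.46). ABCB4, which moves auxin in root hairs and epidermis, had 50623 and 4221 (-3.34). ABCG34 and ABCG37 ended the 10 lowest with 47165 and 5370 counts (-2.89) and with 16863 and 2009 (-2.82).

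GLU1 had no identical ORF and so no ratio of this kind, since its root ORF was 2 codons shorter than its shoot ORF. Per codon of the longest ORF it had 4338 counts over 1646 codons in root and 155726 over 1648 in shoot, 42.6-fold more in shoot. A comparison per codon of the longest ORFs, identical or not, covered all 445 members. It called 15 higher in shoot and 27 higher in root, or 3.37% and 6.07%, beside 9.24% and 9.44% of all genes. Genes added by it on the shoot side include GLU1, ABCB2 (797 counts over 1111 codons against 11318 over 1273) and PHYLLO, a fused enzyme of phylloquinone synthesis (192 over 1652 codons against 2063 over 1715). PHYLLO, and the aldehyde oxidase gene AO1 on the root side with 24823 counts over 1368 codons against 3679 over 1355, were chosen after their values were seen.

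Glutamate synthases were related long frames on opposite sides. GLU1 was at 2.64 counts per codon in root and 94.5 in shoot. GLT1, which draws on NADH and not on ferredoxin, was at 116 and 42.0, a ratio of -1.21. GLU2, the second ferredoxin-dependent form, had 45980 counts in root and 10045 in shoot, a ratio of -1.95. Root thus had more of GLT1 and GLU2 and shoot more of GLU1, although the ratios of GLT1 and GLU2 stayed under 4-fold. In the list of plastid and primary metabolism genes, 7 of 10 members had a ratio, with a median of 0.29, 2 past 4-fold in shoot and 0 in root, beside 8.71% and 8.28% of all genes. ACC1, the cytosolic acetyl-CoA carboxylase, had 37025 and 38248 counts (0.29). SEX1, which phosphorylates starch, had 6057 and 10331 (1.02). Among the receptors of plastid import, TOC132 had 5360 and 5344 counts (0.24), where TOC159 was at 2.25.

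ABC transporters were the largest named family, with 37 members. Both sets listed 31 of them, while 3 were found in root alone and 3 in shoot alone. Thus 6 of 37 were missing from 1 set, beside 11 of the 425 other members and 3484 of the 18104 nuclear coding genes of any length. The share of the family was near that of all genes. Of the 23 with a ratio, 1 was 4-fold higher in shoot and 7 in root, against 9 and 12 of the 320 other members and 8.71% and 8.28% of all genes compared. Their ratios ran from -3.88 to 3.99, with a median of -0.55. The 6 ABCG transporters with a ratio had a median of -2.81, with 4 past 4-fold in root and ABCG32 alone in shoot. Of the 11 ABCC transporters with a ratio, 1 was past 4-fold in root and the median was -0.08.

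The ABCB transporters of the list give the range within a subfamily. ABCB1 and ABCB19, which move auxin down the stem and root, had 14960 and 8955 counts and 34196 and 19705 counts, ratios of -0.49 and -0.55. ABCB4 and ABCB11 lay below -3, ABCB2 was 14.7-fold higher in shoot per codon, and ABCB14 was listed in shoot only. ABCA1, the single full-size transporter of its class, had 3292 and 2745 counts (-0.01). Transporters of this family are close relatives, and reads shared between near-identical copies could be split by the counting, so values of single paralogs are uncertain.

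Callose synthases make the beta-glucan that closes plasmodesmata and builds the cell plate. The list held 10 members, all listed in both tissues, of which 6 had a ratio. The median was -0.18, and 1 was 4-fold higher in root and 0 in shoot, where 8.28% and 8.71% of all genes were. A single call among 6 genes is not set apart from that share. That gene was CalS7, the synthase of sieve plates, with 1099 counts in root and 206 in shoot (-2.16). It lost the call once ratios were centred on the median of all genes, where it stood at -1.83. CALS3, listed as GSL12, was the one with the larger share in shoot, with 10133 and 14494 counts (0.76). Per codon of the longest ORFs 3 more of the 10 were past 4-fold in root, beside 9.44% of all genes. CALS1 had 10.3 per codon in root and 1.35 in shoot, GSL11 had 1.02 and 0.126, and GSL04 had 0.612 and 0.0578. GSL03 had 10337 and 6928 counts (-0.33), the common level.

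Myosins XI carry organelles along actin, and their ratios were widely spread. In the family named myosin XI, 7 of the 8 with a ratio were below 0, the median was -1.43, 3 were 4-fold higher in root and 0 in shoot. Of all 11602 genes compared 7399 lay below 0, and 8.28% were called in root. Beside XIF, XIB had 7719 counts in root and 1221 in shoot (-2.41), and XIC had 194 and 31 (-2.38, counting interval -2.99 to -1.85). XIK, one of the main motors of tip growth, had 34622 and 9258 (-1.65). MYA2 (XI-2) had 15679 and 5717 counts, and MYA1 (XI-1) went the other way with 6011 and 7597 (0.59). Named kinesins, the motors of microtubules, were higher in shoot share in 3 of 4, with a median of 0.43 and none past 4-fold, where 4203 of the 11602 genes compared were above 0. POK2, a guide of the division plane that was named after its value was seen, had 4698 and 4865 counts (0.30). In the whole list of motors and cytoskeleton organisers, 14 of 17 members had a ratio, the median was -0.44, and 2 were called in root and 0 in shoot.

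Most listed genes of membrane traffic and sorting stood on one side without large differences. Of the 15 entries, BIG1, BIG2 and BIG3 were not matched to a gene by symbol, so their membership was not checked. The values below hold for the listed genes and not for all long genes of this role. Of 12 members 11 had a ratio, all 11 below the median of all genes, with a median of -0.79, a range from -1.78 to -0.44 and none past 4-fold. Across all genes compared, by the nature of a median, 5801 of 11602 lay below it. The remaining member, FAB1A, had no identical ORF and stood at -0.10 per codon, above the median of all genes on that scale, with 4094 counts over 1757 codons and 3162 over 1724. CHC1 had 122659 counts in root and 49952 in shoot (-1.05), and CHC2 had 113102 and 58588 (-0.70). GN, the ARF exchange factor known as GNOM that recycles auxin carriers, had 8761 and 5256 (-0.49), and its relative GNL1 had 11788 and 7042 (-0.50). ATMIN7, also known as BEN1, had 45603 and 18477 (-1.06). SPI, a giant of the BEACH family that shapes trichomes, had 13599 and 6784 (-0.76), and ATG2 of autophagy lay lowest at -1.78 with 4713 and 1154 counts. The last was named after its value was seen.

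Ubiquitin ligases and related giants had 8 members. All 6 with a ratio were below 0, with a median of -0.42 and a range from -0.83 to -0.26, and none was called. Of all genes compared 7399 of 11602 were below 0 too, as were 238 of the 343 members with a ratio. UPL2 had 45387 counts in root and 27960 in shoot (-0.45), KAK (UPL3), which limits trichome branching, had 23593 and 15383 (-0.37), and BIG had 63879 and 35690 (-0.59). UPL1 had 23640 and 16778 counts over ORFs of unlike length, and -0.26 in the 3681 codons they share. PRT6, the recogniser of the N-degron pathway that links oxygen to protein stability, had 15235 and 7233 (-0.83). These 6 were within 2-fold of the common level of -0.33. UPL4, with no identical ORF, was not, with 6910 counts over 1502 codons in root and 1916 over 1494 in shoot, 3.02-fold higher in root per codon (-1.59).

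Most listed long frames of the nucleus differed little between the tissues. The lists of chromatin, transcription, DNA replication and repair, DNA methylation and small RNA, and splicing with the nuclear pore together gave 60 members. All of these were listed in both tissues. Of the 45 with a ratio, 0 were past 4-fold in either direction, beside 8.71% and 8.28% of all genes and 2.92% and 5.54% of all members. Their ratios ran from -0.98 to 0.72 with a median of -0.01, and 34 of the 45 lay at or above the median of all genes. Per codon of the longest ORFs, all 60 could be compared and ran from -1.34 to 2.09. On that scale 1 was past 4-fold in shoot and 0 in root, beside 9.24% and 9.44% of all genes. Median levels were 2.54 counts per codon in root and 2.05 in shoot, close to those of all members. These values hold for the listed genes and not for all long genes of the nucleus. On none of the lists were chr31, found in root only, and LIG6 and SHOC1, found in shoot only. List entries such as MED13, TEB and NOT1 were not matched to a gene by symbol, so their membership was not checked.

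The chromatin list had a median of 0.03 over 12 genes. The remodellers SYD, INO80 and PIE1 had 16305 and 14071 counts (0.04), 3364 and 2719 (-0.06), and 1525 and 1607 (0.32), and PKL had 11684 and 8221 (-0.26). EFS (SDG8), a histone methyltransferase of flowering control, had 6377 and 4282 (-0.33). Transcription genes had a median of -0.06 over 10. NRPB1, the largest subunit of RNA polymerase II, had 23310 counts in root and 13357 in shoot (-0.56), whereas NRPC1 of polymerase III had 1868 and 1566 (-0.01) and NRPD1B of polymerase V had 2102 and 1786 (0.01). The Mediator subunit CCT (MED12) had 3372 and 2631 (-0.11).

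DNA replication, repair and chromosome genes had a median of 0.14 over 11, with 8 above 0, beside 4203 of the 11602 genes compared. ICU2, the catalytic subunit of DNA polymerase alpha, had 3529 counts in root and 3370 in shoot (0.18), and TOPII, which untangles chromosomes, had 9838 and 9106 (0.14). TIL1 of polymerase epsilon had 4360 and 2764 (-0.41). The cohesin subunit TTN7 (SMC3) had 8773 and 6521 (-0.18). REV3, which copies past damage, had 1113 counts over 1724 codons and 408 over 1895, with no ratio by identical ORF and a difference of -1.34 per codon. In the list of DNA methylation and small RNA genes 4 of 9 had a ratio. MET1, which maintains methylation at CG sites, had 7528 and 10204 counts (0.69), DME, a DNA glycosylase, had 6430 and 4065 (-0.41), and DCL1, which makes microRNAs, had 2586 and 2019 (-0.11). DML2, a demethylase, was 4.26-fold higher in shoot per codon, with 309 counts over 1221 codons against 1210 over 1332.

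Splicing, RNA decay and nuclear pore genes had a median of -0.21 over 8. SUS2 (PRP8), of the spliceosome core, and emb1507 had 37987 and 28224 counts (-0.18) and 42185 and 31239 (-0.19). LBA1 (UPF1), the helicase of nonsense-mediated decay, had 10117 and 6385 (-0.42), and VCS, a scaffold of decapping, had 24426 and 14187 (-0.54). In the list of TOR and translation control, 4 of 5 had a ratio, with a median of -0.04. ILA had 32437 and 25847 counts, GCN2 had 1138 and 989 (0.05), and EIF4G had 18754 and 12592 (-0.33). TOR, the growth kinase, had 13536 and 7957 counts and a difference of -0.48 per codon. These ratios and those of SUS2 and emb1507 differed from the common level by less than 2-fold.

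The last 3 lists were small. Of 5 genes for signalling at the membrane, 4 had a ratio and GSO1 was the one past 4-fold, beside 8.28% of all genes called in root. Its paralog GSO2 had 1148 and 705 counts (-0.46), and the calpain DEK1 had 3398 and 3876 (0.44). EIN2, the central relay of ethylene signals, had 12905 counts in root and 5203 in shoot, with -1.04 per codon. Of 8 entries on the list of immune receptors of the NLR class, 3 were members, 4 had no coding ORF listed and 1 was not matched by symbol. The values hold for the list and not for all long genes of this class. RRS1 had 1283 and 613 counts (-0.82), its partner RPS4 had 1430 and 673, and DAR4 (CHS3) had 1032 and 1312 (0.59). Of the 10 entries of the flippase list, 9 were not matched to a gene by symbol, so their membership was not checked. The matched one, ALA3, was a member with 6082 and 3239 counts and -0.55 per codon.

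**Figure D3:**
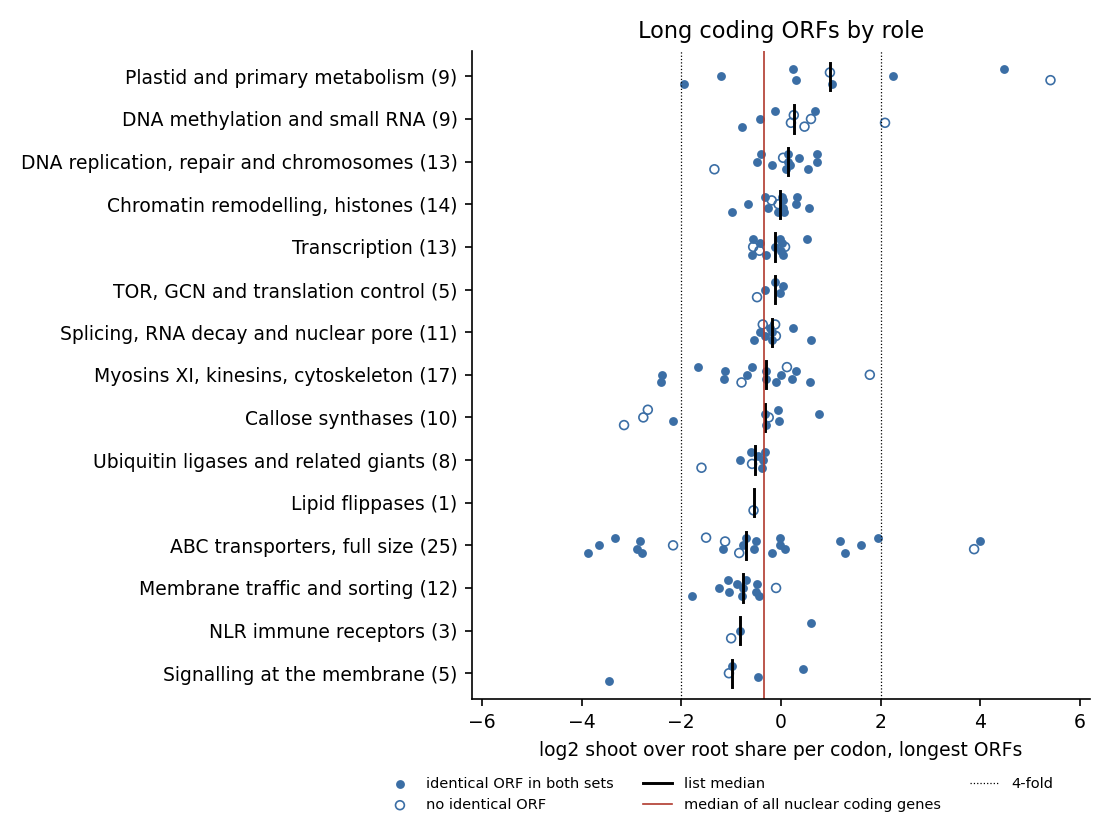
Log2 of shoot over root share per codon for the members of each role list (x axis), with lists ordered by their median (y axis, number of members in parentheses); filled points have an identical ORF in both sets, open points do not, black ticks are list medians, the red line is the median of all nuclear coding genes and dotted lines mark 4-fold. ABC transporters run from -3.88 to 3.99, while the lists of the nucleus lie within 4-fold, DML2 excepted, at 2.09.

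The longest coding ORF was identical in both sets, block for block, in 335 of the 445 members (75.3%, interval 71.0 to 79.2), beside 77.7% of all nuclear coding genes found in both. Where it differed, the start end did, and the stop end was shared in all but 1 member. Of the 110 members with unlike longest ORFs, 109 had the same stop end, 0 had the same start end, and 104 were given on the same transcript. The outer ends of the listed blocks are uncertain by 1 base. Shorter genes had 98.3% with the same stop.

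In length, 57 of the 110 were longer in root and 53 in shoot. The difference was between 1 and 389 codons, with a median of 40, or 2.61% of the longest ORF, and 19 members differed by 100 codons or more. In shorter genes the median difference was of like size in codons, 34, but 8.01% of the ORF. In 71 of the 110 (64.5%, interval 54.9 to 73.4) the longer ORF was in the tissue with more counts per codon, scaled by the tissue sums, and in 69.5% of shorter genes. The part of coverage in the ORF ends was not tested.

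The exception at the stop was AT5G51630, with 2392 counts over 1229 codons in root and 125 over 840 codons in shoot. It was also the largest difference in length. ABCG33 followed, with 1413 codons in root and 1029 in shoot, then GSL04 with 1881 and 1540, AT4G02660 with 3527 and 3216, and WAVE5, a relative of the SCAR activators of actin nucleation, with 2028 and 1896. Toward shoot the order was led by SAC3B, of the mRNA export complex at the pore, with 1492 codons in root and 1697 in shoot. UPL1 had 3681 and 3875, AT5G49110 had 1276 and 1470, emb2410 had 1980 and 2166, and REV3 had 1724 and 1895. Of the 10, UPL1 was the single one above 2 counts per codon in both tissues.

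**Figure D4:**
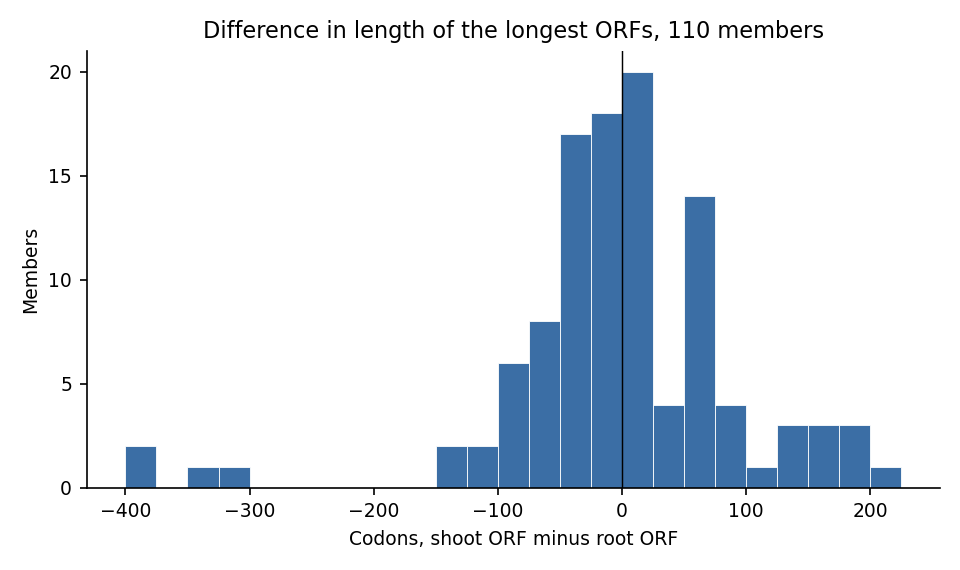
Number of members (y axis) by the difference in codons between the longest shoot and the longest root ORF (x axis, shoot minus root), for the 110 members whose longest ORFs differed. Most lie within 100 codons of 0, and the 4 farthest are AT5G51630, ABCG33, GSL04 and AT4G02660, all longer in root.

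**Figure D5:**
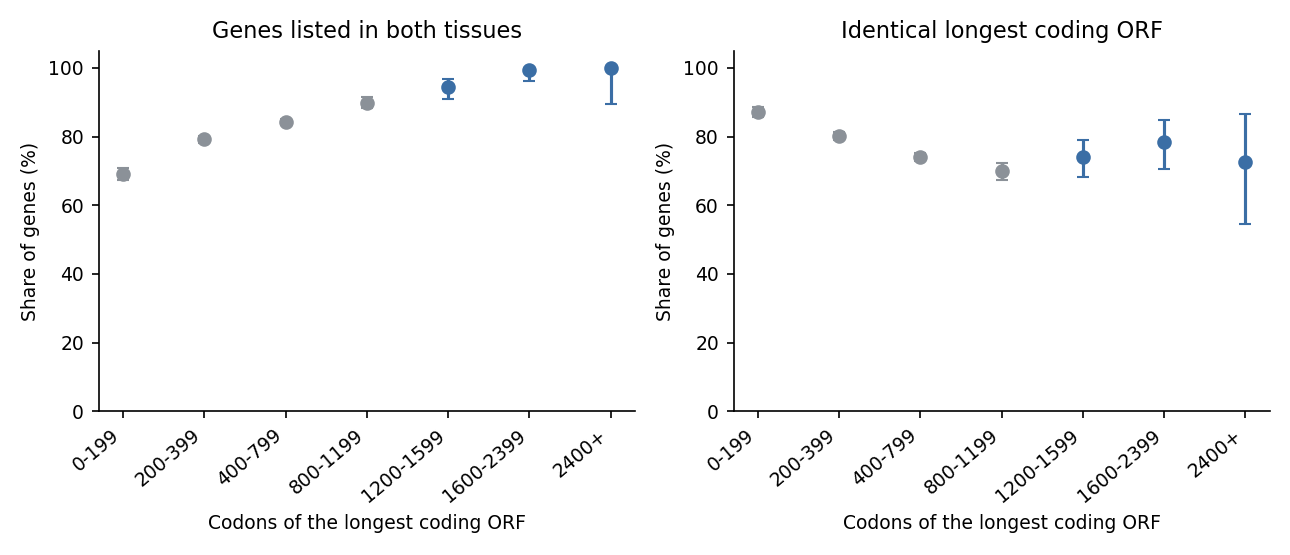
Share of nuclear coding genes listed in both tissues (left, y axis in percent) and share whose longest coding ORF was identical in root and shoot (right), by codons of the longest coding ORF (x axis); bars are exact binomial 95% intervals and the member classes are blue. The share in both ran from 69.1% in the shortest class to 33 of 33 genes in the longest, while the share identical was 87.1% in the shortest class and between 72.7% and 78.3% in the 3 member classes.

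Many members had further coding ORFs within the same gene. In root 141 of 455 members had more than 1, up to 6, and in shoot 141 of 452, up to 7. The sets held 638 and 636 coding ORFs of members in all. Most of the further ORFs kept both outer ends and so differed in inner exons or block edges, as 120 of 183 did in root and 118 of 184 in shoot. Under 400 codons lay 15 and 19 of them. In GUN5 an ORF of the last 100 codons had 2329 counts in root, 23.3 per codon, where the rest of the gene had 18.3. The matching ORF of 101 codons in shoot had 36731 counts, 364 per codon, where the rest had 348. Nested ORFs count the same reads again, so such an ORF is not a separate amount of footprints.

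Upstream ORFs, short frames ahead of the main one, were listed for 3 members. AT5G11700 had one of 19 codons with 312 counts in root, 16.4 per codon, where its main frame had 4.31. AT5G24710 had one of 9 codons with 112 counts in root (12.4 per codon against 9.14). HAC12, a histone acetyltransferase gene, had one of 21 codons with 51 counts in shoot (2.43 per codon against 1.16). Each of these upstream ORFs was listed in 1 tissue.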

How the data were processed

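Per the labels, 12 samples fall into 4 groups of 3 (ribosome profiling and RNA-seq, root and shoot). The deposited values used here are 1 whole-number count per ORF and tissue, as the authors made them. They are not scaled by length or depth, and the unit was read from the values since no header names it. Bowtie2, STAR 2.5.1b and the build TAIR10 are named per the submitters' processing notes. The sources used here do not give the ORF caller, its filters or how 3 samples became 1 set. RNA-seq and single replicates were not analysed here.

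Blocks with the same name were joined into 1 ORF, and codons came from the transcript positions in the name. Gene values use the longest coding ORF. Ratios use the longest ORF with identical blocks, a pseudocount of 0.5, at least 100 counts in the higher tissue and the sums of the largest ORF counts as scale. With 1 value per tissue there was no test. Intervals are exact binomial (Clopper-Pearson) at 95%, and those of a ratio come from the binomial share of shoot in the sum of both counts. The steps were checked on simulated counts.

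Members and gene lists were chosen with earlier results of these data known. The 15 role lists hold 191 entries: 168 matched the RefSeq table (TAIR10.1, names only), 158 were members, 9 had no coding ORF listed, and 23 did not match. All 462 members matched the table, 284 with a name other than the locus tag. Named are the 10 longest members, the 10 highest and 10 lowest ratios, the 8 densest in each tissue, up to 8 listed in 1 tissue, the 5 largest length differences each way, the neighbours of the threshold and up to 6 members per list in list order. ABCB19, ATG2, POK2, TOC132, PHYLLO, AO1, the other members with no intron, those with an upstream ORF and the 2 last genes listed in root only were chosen after their values were seen. Other ORF choices, pseudocounts, scalings, filters, folds and lengths were tried. Python 3.11.15, pandas 2.3.3, numpy 2.4.6, scipy 1.17.1 and matplotlib 3.10.9 were used.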

Additional observations from a re-analysis of the deposited data

How the results depend on the processing

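The 10 members higher in shoot and 19 higher in root became 15 and 27 with the largest ORF count of each gene, with the longest coding ORF of each tissue, or per codon of it (the last chosen after seeing the data), among 445 members. They became 11 and 16 when centred on the median ratio of all genes, a shift of 0.33, and stayed at 10 and 19 with a pseudocount of 5, the nuclear sum or no count filter. At 2-fold the counts were 21 and 53 (6.12% and 15.5%, beside 14.7% and 24.1% of all genes). From 1000 codons on they were 25 and 32 of 664, and from 1500 codons on 5 and 6 of 164.

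Listed in root only and in shoot only were 18 and 11 members when a tissue had to hold an ORF of 1200 codons or more, and 33 and 11 at a higher minimum count per ORF, which 447 members met in at least 1 tissue. With 1000 counts or more in the higher tissue, chosen after seeing the data, they were 4 and 3 of 435. The identical count of 335 became 444 when the same stop end sufficed. Medians per codon were the same with the ORF of the largest count.

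Of 23 named genes past 4-fold, 22 stayed past it under all 7 settings that recompute the ratio, and CalS7 did not, at -1.83 when centred on the median. No called gene changed direction.

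No paired analysis was possible because the files hold 1 value per tissue and ORF. For the same reason leaving out a replicate and a fit with a replicate block were not run. The spread between seedlings is unknown, so a ratio near 4-fold cannot be placed on either side of it with confidence.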
